A study of Mus musculus with 69 samples.

Results

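The response of macrophages from SPRET/EiJ (SPRET) mice to 24 hours of interleukin-4 (IL-4) was measured by RNA sequencing in 6 of the 69 samples of the study, 3 under basal conditions and 3 after IL-4. These libraries were taken by their labels for strain, treatment and time from the table that covers 5 mouse strains. SPRET is an inbred, wild-derived strain of Mus spretus, a species separate from the laboratory house mouse, although the labels give the organism as Mus musculus. Bone marrow of female mice aged 8 to 12 weeks was differentiated to bone marrow-derived macrophages (BMDMs) over 7 days with M-CSF, the growth factor of macrophages. Basal cells received no treatment, and the others received mouse recombinant IL-4 at 20 ng/ml. A time course of the same strain (2 libraries each at basal and at 1, 6 and 24 hours of the same dose), and the basal and 24-hour IL-4 libraries of the laboratory strain C57BL/6J (C57, 3 and 3) and of the wild-derived strain PWK/PhJ (PWK, 2 and 3), were used to show where the SPRET response differed. The labels give no engineered allele for these groups. The methods call the libraries biological replicates, but the labels do not tie a library to a mouse. P-values thus measure the spread between libraries only, estimated over all libraries of a table. The 29 libraries of the 5-strain table include basal and 24-hour IL-4 libraries of BALB/cJ and NOD/ShiLtJ mice.

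IL-4 binds a receptor of the IL-4 receptor alpha chain and a second chain, and the JAK kinases attached to it phosphorylate STAT6, which dimerizes, enters the nucleus and activates its target genes. In macrophages this leads to the state called alternative activation, known for arginase and lectin receptors, for chemokines that draw T helper 2 cells and eosinophils, and for a reduced inflammatory output. The transcription factors EGR2 and PPARγ are themselves early products of the response and act on later genes.

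Expression is given as TPM, a transcript level scaled to transcript length and to the library, and tests were run on log2(TPM + 1) with limma. Induced and repressed below mean a difference of more than 2-fold on that scale with an adjusted p under 0.05. Adding 1 TPM makes the fold change of genes with low levels smaller than the ratio of their TPM. The 6 libraries held between 17.3 and 22.5 M tags (aligned reads) in all, and the counts behind single genes are not given in the table, so that precision was taken from the replicates. Pearson r between replicates, across genes, lay between 0.9959 and 0.9964, and 86.4% of the variance of the 6 libraries lay along a first principal component that separated basal from IL-4 libraries. In bulk RNA, fewer cells of a type and less RNA per cell cannot be told apart.

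Of 11907 genes tested, 276 were induced (2.32% of genes tested) and 193 were repressed (1.62% of genes tested) in SPRET BMDMs after 24 hours of IL-4. The 3 IL-4 libraries lay wholly above the 3 basal libraries in 275 of the induced genes and wholly below them in 191 of the repressed genes, where 62.3% of all genes tested had groups that did not overlap. The induced genes had a median mean level of 4.86 TPM under basal conditions and of 24.3 TPM after IL-4, and 62 of them lay under 1 TPM before treatment. The repressed genes went from a median of 17.5 TPM to 4.92 TPM, and 31 of them lay under 1 TPM after IL-4. Large changes were mostly inductions, with 88 genes above a log2 change of 2 and 16 above 4, where 26 genes lay below -2 and 1 below -4. Induced genes together took up between 1.50% and 1.55% of the listed TPM in basal libraries and between 5.14% and 5.27% after IL-4. Repressed genes took up between 12.2% and 13.0% before and between 5.26% and 5.54% after. The counts depended on the value added before the logarithm, with 431 and 331 genes for 0.1 TPM and 157 and 93 for 5 TPM.

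The balance between the directions depended on scaling. The median log2 change of all genes tested was 0.11, and changes below are to be read against that value. When libraries were rescaled by the median ratio of genes, the median was 0 and 224 genes were induced and 242 repressed, so that induced genes made up 48.1% of the called genes in place of 58.8%. Quantile normalization gave 226 and 241, a share of 48.4%. All 224 and 226 of these induced genes were also induced with TPM as deposited. Among the most abundant transcripts, the acute-phase gene Saa3 took 66829 to 72741 TPM in basal libraries and 28684 to 30636 TPM after IL-4, and the ferritin gene Fth1 averaged 82882 and 52572 TPM. The part of such transcripts in the shift was not tested.

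**Figure D1:**
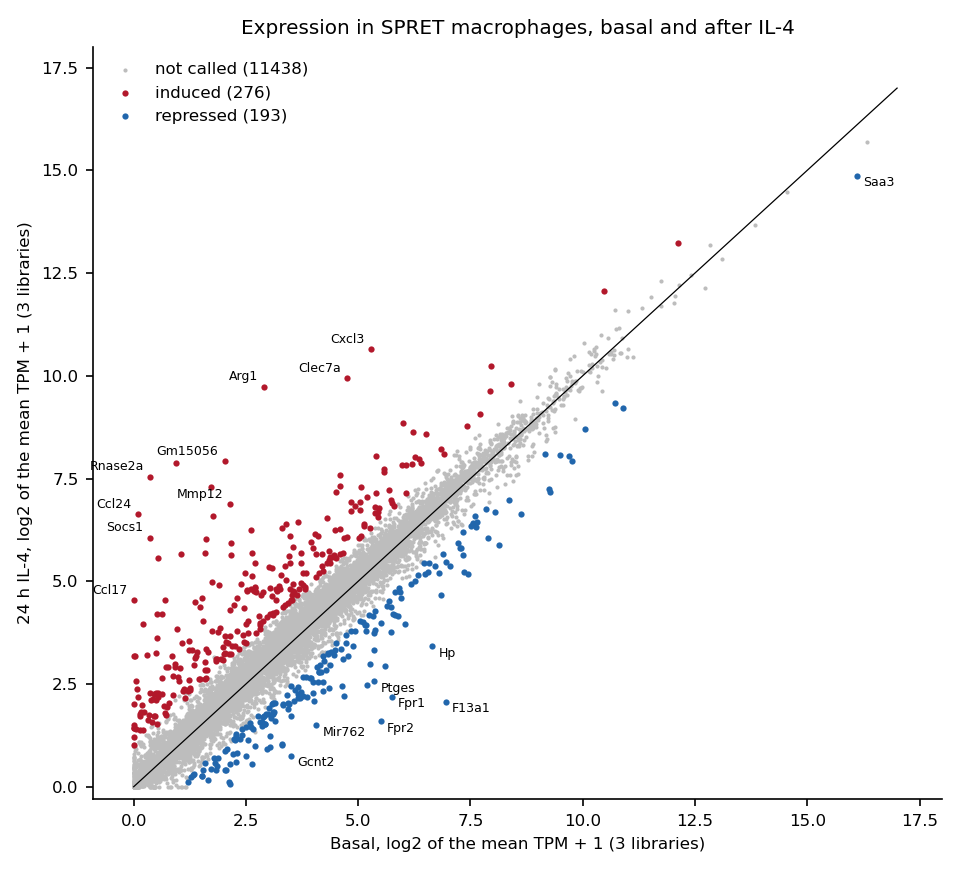
Mean expression of the 11907 genes tested in 3 basal (x axis) and 3 IL-4 (y axis) SPRET libraries, as log2 of the mean TPM + 1, with induced genes in red, repressed genes in blue and equality as a line. Induced genes reach down to 0 TPM on the basal axis, and Saa3 sits at the upper end among the repressed genes.

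Most, but not all, macrophage markers were well expressed. Adgre1 (the F4/80 antigen) lay between 240 and 369 TPM in the 6 libraries, Csf1r (the M-CSF receptor) between 347 and 601 TPM, Cd68 between 2456 and 3280 TPM and the lysozyme gene Lyz2 between 22370 and 24391 TPM, while Mertk lay between 3.31 and 6.61 TPM, Marco between 2.92 and 8.81 TPM, Fcgr1 between 0.265 and 1.61 TPM, and Cd163 at or under 0.039 TPM. Of the 11 macrophage markers tested, none was induced and 4 were repressed, namely Itgam, Cd14, Cx3cr1 and Marco. For this and the other marker lists, 2.32% of all genes tested were induced and 1.62% repressed. At an adjusted p under 0.05 with no limit on size, 9 of the 11 were lower (12.9% of all genes tested) and 1 was higher (31.4% of all genes tested), with a median log2 change of -0.74, and Csf1r went from 581-601 TPM to 347-362 TPM. The summed level of the list, most of it from Lyz2, was 28361 to 29078 TPM before and 26752 to 27121 TPM after IL-4. Among markers of other cells, the neutrophil list summed to 344 to 404 TPM in basal and 249 to 274 TPM in IL-4 libraries, nearly all of it from S100a8, while its partner S100a9 stayed at or under 0.747 TPM and Ly6g and Retnlg were listed at 0. Camp, 1 of the 5 neutrophil markers tested, was repressed (log2 change -1.23). Klrb1c, a natural killer cell receptor gene, was induced from 0.402-0.530 TPM to 3.42-3.67 TPM (log2 change 1.63), and the T and NK cell list summed to 1.64-1.81 TPM before and 4.13-4.51 TPM after IL-4 with Cd3e, Cd3g and Cd8a listed at 0 in all 6 libraries. No marker of dendritic cells, mast cells, eosinophils, B cells, stromal cells or endothelial cells was called among the few tested, and no erythroid marker reached the level needed for testing. The part of other cells in the changes below was not tested.

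On the log2(TPM + 1) scale the largest inductions were those of a ribonuclease, a membrane protein and arginase. This order depended on the value added. Among the 15 named induced genes, Ccl24 came first with 0.1 TPM added (log2 change 9.19) and Arg1 with 5 TPM (6.22). Rnase2a (chromosome 14, 51255262 to 51256112, minus strand, mm10), a ribonuclease of the eosinophil-associated family, was at 0.101, 0.298 and 0.479 TPM in the basal libraries and at 182, 177 and 198 TPM after IL-4, a log2 change of 7.18 (standard error 0.18, adjusted p = 8.79e-21, limma). Members of this family are near copies of each other and reads can be split between them, so that the level of Rnase2a alone is uncertain. Ms4a4a (chromosome 19, 11375488 to 11392915, plus strand), a membrane protein of the MS4A family, was at 0.772, 0.828 and 1.13 TPM before and at 223, 229 and 252 TPM after IL-4 (log2 change 6.95, standard error 0.16). Arg1 (chromosome 10, 24915207 to 24927470, minus strand), the arginase that turns arginine into ornithine and urea, was at 6.38, 7.33 and 5.87 TPM before and at 809, 809 and 939 TPM after IL-4 (log2 change 6.83, standard error 0.16). All named genes of the largest changes were required to have groups that do not overlap, so their separation is part of the choice.

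Of the next genes, 5 encode chemokines. Ccl24 (chromosome 5, 135569937 to 135573043, minus strand), an eotaxin that attracts eosinophils, was at or under 0.102 TPM in the basal libraries and at 90.0, 101 and 104 TPM after IL-4 (log2 change 6.53, standard error 0.15, adjusted p = 1.16e-21, limma). Ccl9 was at 2.24, 2.61 and 1.99 TPM before and at 150, 153 and 166 TPM after (log2 change 5.59, standard error 0.06, adjusted p = 2.52e-28, limma). Cxcl3 (chromosome 5, 90786101 to 90788093, plus strand), a ligand of the neutrophil receptor CXCR2, was at 40.8, 32.3 and 40.5 TPM before and at 1585, 1567 and 1661 TPM after (log2 change 5.38, standard error 0.11). Cxcl3 thus was the most abundant of the named induced genes after IL-4. Ccl22, a ligand of CCR4 on T helper 2 cells, went from 0.652, 1.06 and 1.56 TPM to 49.2, 51.6 and 48.4 TPM (log2 change 4.62). Ccl17, the other CCR4 ligand, was listed at 0 in all 3 basal libraries and at 22.3, 21.0 and 23.1 TPM after IL-4 (log2 change 4.53 on the log2(TPM + 1) scale).

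Receptors, enzymes and a signalling inhibitor were the others of the 15 named. Clec7a (chromosome 6, 129461591 to 129472779, minus strand), the beta-glucan receptor dectin-1, was at 25.3, 25.6 and 27.2 TPM under basal conditions and at 951, 976 and 1022 TPM after IL-4 (log2 change 5.19, standard error 0.06, adjusted p = 4.63e-27, limma). Socs1 (chromosome 16, 10783809 to 10785536, minus strand), a feedback inhibitor of JAK kinases, was at 0.342, 0.280 and 0.216 TPM before and at 73.6, 64.8 and 59.0 TPM after (log2 change 5.70, standard error 0.20). Il20rb, a chain of receptors for the IL-20 family of cytokines, rose from 2.19-2.54 TPM to 91.9-98.7 TPM (log2 change 4.82). Clec7a was the one of these already well expressed under basal conditions. The macrophage elastase gene Mmp12 rose from 2.84-4.46 TPM to 112-120 TPM (log2 change 4.76), and Cyp1b1, a cytochrome P450 of steroid and xenobiotic metabolism, from 0.359-0.541 TPM to 44.8-47.9 TPM (log2 change 5.02). Gm15056, a predicted gene, rose from 4.25, 2.63 and 2.33 TPM to 229, 257 and 237 TPM (log2 change 5.92, standard error 0.19). Il4i1, a secreted amino acid oxidase named for its induction by IL-4, was at 1.94, 2.31 and 1.87 TPM before and at 65.9, 63.3 and 64.1 TPM after (log2 change 4.43). The row of Il4i1 overlaps that of Gm21948 on the same strand over 4516 bases, so that reads of this pair could not be assigned with certainty.

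**Figure D2:**
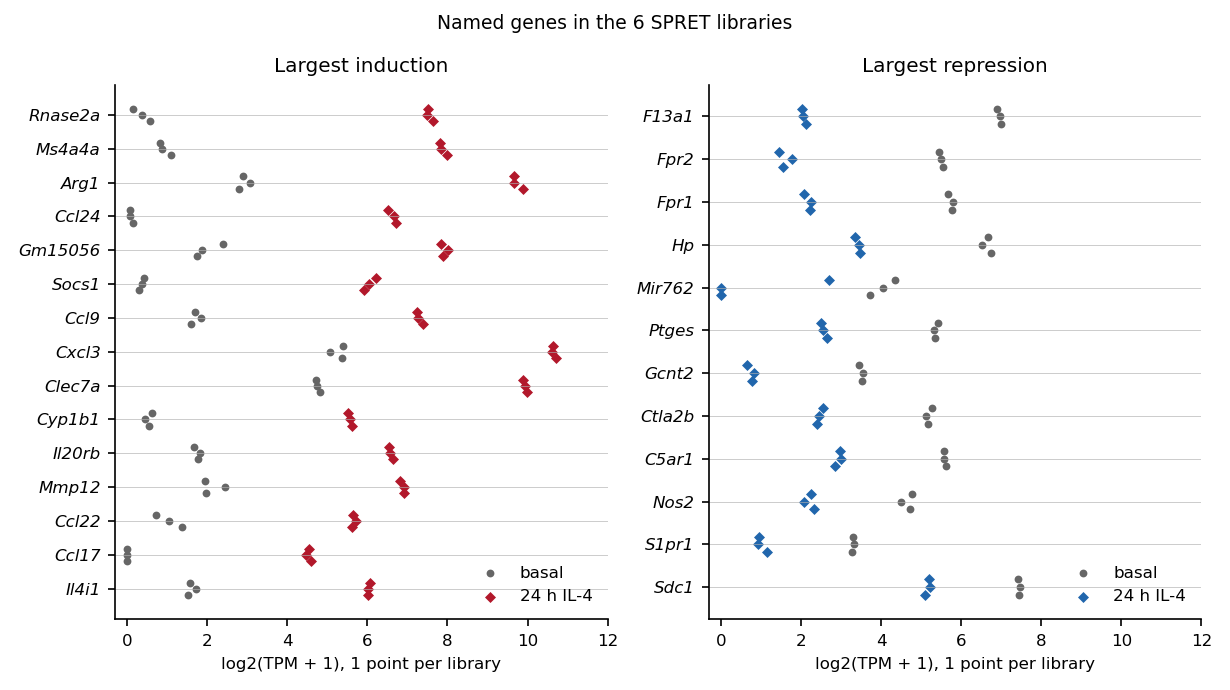
Expression of the 15 most induced and 12 most repressed named genes in each of the 6 SPRET libraries, as log2(TPM + 1), with circles for basal and diamonds for IL-4 libraries. Genes were chosen so that the 3 diamonds lie apart from the 3 circles, and Mir762 has the widest spread, with IL-4 libraries at 5.47, 0 and 0 TPM.

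The reference promoters of the induced genes were searched for the spacing that STAT6 prefers, TTCNNNNGAA, which reads the same on both strands. Promoters covered 250 bases before to 50 bases after the gene start in RefSeq on GRCm38.p6 (mm10), and 13 of the 15 most induced genes had an entry, the exceptions being Arg1 and Ccl24. The letters occurred in the 3 promoters below, shown because they belong to strongly induced genes, with the matching letters in capitals. They are the letters of the reference genome and not those of SPRET. The promoter of Gm15056 is chr8:20902407-20902706 on the minus strand, 483 bases off the start given in the table of expression, that of Clec7a is chr6:129472730-129473029 on the minus strand, and that of Ccl17 is chr8:94810203-94810502 on the plus strand, all 5′ to 3′.
Gm15056: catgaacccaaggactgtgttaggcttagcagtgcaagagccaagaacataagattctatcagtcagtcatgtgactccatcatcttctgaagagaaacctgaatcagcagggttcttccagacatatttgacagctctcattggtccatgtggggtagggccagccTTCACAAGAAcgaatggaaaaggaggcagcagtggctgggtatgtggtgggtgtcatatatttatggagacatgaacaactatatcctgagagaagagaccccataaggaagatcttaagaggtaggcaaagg
Clec7a: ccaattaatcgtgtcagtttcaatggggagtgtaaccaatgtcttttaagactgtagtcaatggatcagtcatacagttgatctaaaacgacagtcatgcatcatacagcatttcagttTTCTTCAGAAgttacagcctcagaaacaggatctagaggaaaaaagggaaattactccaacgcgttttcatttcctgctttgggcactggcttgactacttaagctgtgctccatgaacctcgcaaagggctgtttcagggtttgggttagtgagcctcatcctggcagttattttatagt
Ccl17: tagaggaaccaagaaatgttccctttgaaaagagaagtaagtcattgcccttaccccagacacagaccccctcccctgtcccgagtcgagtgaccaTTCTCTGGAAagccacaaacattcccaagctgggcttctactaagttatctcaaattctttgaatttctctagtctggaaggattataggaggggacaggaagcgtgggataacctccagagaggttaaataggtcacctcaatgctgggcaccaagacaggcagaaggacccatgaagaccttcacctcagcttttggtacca
The first base of the match lay at -83 in Gm15056, -131 in Clec7a and -154 in Ccl17, counted from the start. Over all induced genes with a promoter entry, 23 of 197 held these letters (11.7%), against 9 of 139 repressed genes (6.47%) and 476 of all 8859 promoters of genes tested (5.37%). The shorter spacing TTCNNNGAA is typical of other STAT proteins and also the same on both strands. It was held by 5.58% of induced, 8.63% of repressed and 6.86% of all promoters. The same promoter can hold both spacings, as that of Ccl17 above does, where the shorter one is not marked. GCGTGGGCG, of the EGR type and sought on both strands, was held by 2.03%, 0.719% and 1.28%, and GAGGAAGT, of the PU.1 type, by 5.08%, 3.60% and 3.51%. These shares are descriptions of the letters in these windows, and enhancers outside them were not searched.

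The most repressed named gene was F13a1, followed by a pair of formyl peptide receptor genes. F13a1 (chromosome 13, 36867178 to 37049213, minus strand, mm10), the A subunit of coagulation factor XIII, was at 119, 124 and 126 TPM under basal conditions and at 3.04, 3.14 and 3.38 TPM after IL-4, a log2 change of -4.89 (standard error 0.10, adjusted p = 1.75e-22, limma). The formyl peptide receptor genes Fpr2 and Fpr1 fell by 3.91 and 3.57 on the log2 scale. Fpr2 went from 42.8, 44.5 and 45.3 TPM to 1.75, 2.43 and 1.90 TPM, and Fpr1 from 50.1, 54.4 and 53.9 TPM to 3.21, 3.76 and 3.64 TPM. C5ar1, the receptor of complement fragment C5a, was at 46.4, 46.4 and 48.3 TPM before and at 6.79, 7.01 and 6.19 TPM after (log2 change -2.65). The haptoglobin gene Hp was at 102, 91.4 and 106 TPM before and at 9.17, 9.90 and 10.0 TPM after (log2 change -3.23). Hp and C5ar1 thus kept higher levels after IL-4 than F13a1, Fpr1 and Fpr2.

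Enzymes and surface proteins completed the list. Ptges, the synthase of prostaglandin E2, went from 39.1-41.6 TPM to 4.67-5.23 TPM (log2 change -2.80), and Nos2, the inducible nitric oxide synthase of classically activated macrophages, from 26.3, 21.7 and 25.5 TPM to 3.79, 3.20 and 3.99 TPM (log2 change -2.45, standard error 0.08, adjusted p = 6.93e-19, limma). Gcnt2, a glycosyltransferase that branches carbohydrate chains, went from 9.84-10.7 TPM to 0.581-0.771 TPM (log2 change -2.76), and the syndecan gene Sdc1 from 170-176 TPM to 33.0-36.4 TPM (log2 change -2.27). S1pr1, a receptor of sphingosine 1-phosphate, went from 8.62-9.07 TPM to 0.911-1.21 TPM (log2 change -2.29). Of these genes, Gcnt2 was the lowest after IL-4 and Sdc1 the highest. Ctla2b, which has a near copy in Ctla2a, went from 33.8-37.9 TPM to 4.29-4.80 TPM (log2 change -2.73). Mir762 was the least certain of the named genes, a row of 76 bases within Bcl7c on the other strand. Mir762 went from 19.4, 15.4 and 12.3 TPM to 5.47, 0 and 0 TPM (log2 change -3.14, standard error 0.67, adjusted p = 0.000455, limma), with values between -4.04 and -2.69 when single libraries were left out.

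Of 18 alternative activation markers tested, 12 were induced and none was repressed, and their median log2 change was 2.16, where that of all genes was 0.11. For this and the other gene lists below, 2.32% of all genes tested were induced and 1.62% repressed. The lists were chosen with earlier results of these data known. Besides Arg1, Clec7a, Ccl17, Ccl22 and Ccl24, the mannose receptor gene Mrc1 rose from 27.3, 29.3 and 26.3 TPM to 116, 123 and 124 TPM (log2 change 2.09), and the gene of the PD-1 ligand Pdcd1lg2 from a mean of 0.966 ± 0.0943 to 13.3 ± 0.525 TPM (SD, n = 3, log2 change 2.86). The fibronectin gene Fn1 (log2 change 2.22), the VEGF receptor gene Flt1 (1.93), the transglutaminase gene Tgm2 (1.12), the cholesterol 25-hydroxylase gene Ch25h (2.72) and Batf3 (3.09) completed the 12. Under median-ratio scaling 11 of the 18 were induced. Several textbook markers were not among them. Chil3, which encodes the chitinase-like protein Ym1, was at 0.363, 0.402 and 0.301 TPM before and 0.493, 0.505 and 0.712 TPM after IL-4 (log2 change 0.21, adjusted p = 0.479, limma), Clec10a at 16.7-16.9 and 15.7-17.7 TPM (log2 change 0.00), and Retnla and Mgl2 were listed at 0 in all basal libraries and at or under 0.651 and 0.372 TPM after IL-4. In the SPRET time course both were induced, Retnla from 0 in both basal libraries to 7.30 and 3.60 TPM at 24 hours (log2 change 2.63), and Mgl2 from 0.981 and 0.603 TPM to 6.94 and 4.58 TPM (log2 change 1.90, adjusted p = 7.92e-06, limma).

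**Figure D3:**
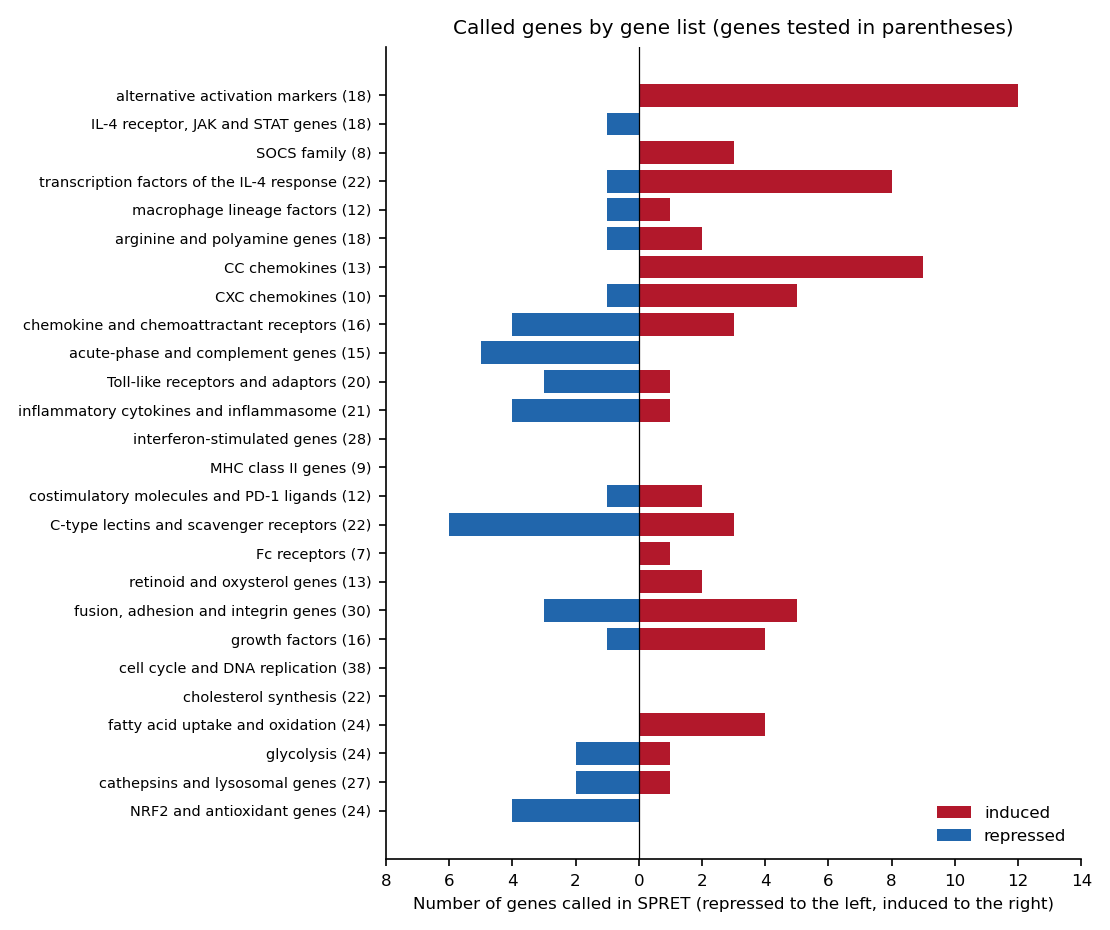
Number of genes called in SPRET after 24 hours of IL-4 in each of 26 gene lists, with repressed genes to the left and induced genes to the right of 0 and the number tested in parentheses. Alternative activation markers and CC chemokines have 12 and 9 induced genes and no repressed gene, while acute-phase and complement genes have 5 repressed genes, 1 of them called again in the time course, and no induced gene.

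Between the list of IL-4 signalling genes and the SOCS family, only SOCS family genes were induced. Of 18 genes of the IL-4 receptor, JAK and STAT list tested, none was induced and only Stat4 was repressed (log2 change -1.04, adjusted p = 3.8e-07, limma). Its change was close to the 2-fold limit, and leaving out 1 library at a time gave 0 to 1 repressed genes in this list. At 24 hours of the time course Stat4 was not called repressed. Stat6 was at 64.1, 66.0 and 63.8 TPM before and at 62.7, 63.7 and 63.6 TPM after IL-4, and the receptor gene Il4ra was at 76.2-80.9 and 44.5-46.2 TPM (log2 change -0.77, adjusted p = 4.82e-11, limma), below the 2-fold limit. In the SOCS family of 8 genes, 3 were induced and 5 were not called. Cish, a target and inhibitor of STAT5, rose from 0.671, 0.293 and 0.330 TPM to 17.8, 17.2 and 17.2 TPM (log2 change 3.69), Socs2 rose by 2.08 and Socs1 by 5.70 on the log2 scale. The Socs3 gene, which restrains IL-6 signalling, averaged 274 and 207 TPM (log2 change -0.40).

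Of 22 transcription factors tied to the IL-4 response, 8 were induced and 1 was repressed, where 2.32% of all genes were induced and 1.62% repressed. Egr2 was at 1.87, 2.20 and 1.97 TPM under basal conditions and at 50.2, 50.9 and 50.0 TPM after IL-4 (log2 change 4.09, standard error 0.09, adjusted p = 5.86e-22, limma). Batf3 (log2 change 3.09), Irf4 (2.51), Pparg (2.42), Bhlhe40 (2.15), Tfec (1.75), Atf3 (1.36) and Klf4 (1.33) were also induced. Pparg, which controls lipid genes, went from 1.18, 1.20 and 0.930 TPM to 9.36, 10.5 and 10.8 TPM, and Irf4, which directs alternative activation with STAT6, from at most 0.057 TPM to 4.53, 5.26 and 5.08 TPM. Fos, a subunit of AP-1, was the repressed gene, at 10.9, 9.68 and 9.22 TPM before and 2.81, 2.96 and 3.29 TPM after IL-4 (log2 change -1.44). Egr1 stayed near the limit of measurement, with means of 0.112 and 0.259 TPM. Among 12 lineage factors, Cebpa rose (51.9 to 125 TPM on average, log2 change 1.26) and the liver X receptor gene Nr1h3 fell (188 to 84.7 TPM, log2 change -1.14), while Spi1, which encodes PU.1, was at 322-363 and 221-285 TPM (log2 change -0.45).

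Of 13 CC chemokine genes tested, 9 were induced and none was repressed with TPM as deposited (9 and 1 under median-ratio scaling), with a median log2 change of 2.01. Ccl12 rose from 0.247-0.652 TPM to 10.5-11.8 TPM (log2 change 3.11), Ccl6 by 2.08 and Ccl7 by 2.01 on the log2 scale, while Ccl8 and Ccl2 rose by 1.78 and 1.77. The inflammatory chemokine gene Ccl3 averaged 18.2 TPM before and 8.66 TPM after IL-4 (log2 change -0.99). Ccl2, Ccl7, Ccl12 and Ccl8 lie side by side on chromosome 11 between 82035577 and 82116799 (mm10).

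Of 10 CXC chemokine genes, 5 were induced and 1 was repressed (5 and 2 under median-ratio scaling). Besides Cxcl3, the CXCR2 ligands Cxcl2 and Cxcl1 rose by 2.99 and 2.29 on the log2 scale, Cxcl2 from 26.3, 19.3 and 24.0 TPM to 187, 186 and 199 TPM and Cxcl1 from 11.4, 9.53 and 11.0 TPM to 52.6, 59.1 and 55.7 TPM. Pf4, platelet factor 4, rose from 9.63, 8.64 and 8.22 TPM to 76.4, 76.7 and 78.8 TPM (log2 change 3.00), and its neighbour Ppbp from 0.063-0.322 TPM to 7.47-8.92 TPM (log2 change 2.91). Ppbp, Pf4 and Cxcl3 lie next to each other among the genes tested, on chromosome 5 between 90768518 and 90788093 (mm10). Cxcl14 was repressed (50.6 to 22.0 TPM on average, log2 change -1.16). Of 16 genes tested for receptors of chemokines and other attractants, 3 were induced (2 under median-ratio scaling) and 4 were repressed. Ccr1 and Ltb4r1 were among the induced genes (log2 changes 1.20 and 1.37). The fractalkine receptor gene Cx3cr1 was repressed along with Fpr1, Fpr2 and C5ar1, from 3.64, 3.29 and 3.28 TPM to 0.055, 0.044 and 0.046 TPM (log2 change -2.07).

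Of 21 genes for inflammatory cytokines and the inflammasome, 4 were repressed and 1 was induced. Il1b was at 622, 595 and 629 TPM in basal libraries and at 141, 144 and 148 TPM after IL-4 (log2 change -2.08, standard error 0.10), Nlrp3, the sensor that drives its processing, fell by 1.72 and Il18 by 1.45 on the log2 scale, and Nos2 was the fourth. Il1rn, the natural antagonist of the IL-1 receptor, was the induced gene, from 29.9, 34.6 and 31.2 TPM to 103, 105 and 107 TPM (log2 change 1.69). In the time course at 24 hours, Il1rn (log2 change 0.45) and Il1b (-0.79) had the same directions but neither was called, and 2 of the 4 repressed genes were called again. The level of Tnf averaged 13.0 and 6.18 TPM (log2 change -0.96), just short of the 2-fold limit, and Il6 and Il10 were at or near 0. In the list of Toll-like receptors and adaptors (20 tested), Cd14 fell from 877, 852 and 889 TPM to 251, 228 and 246 TPM (log2 change -1.85), Tlr2 fell by 1.68 and Irak3, a brake on the pathway, by 1.57, while Tlr8 rose by 1.96 on the log2 scale.

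Of 15 acute-phase and complement genes tested, 5 were repressed and none was induced. Hp was joined by Saa3 (log2 change -1.25, standard error 0.05), Saa1 (-1.05), Saa2 (-1.13) and the complement factor B gene Cfb (-1.13). Of these 5 genes only Hp was called repressed again at 24 hours of the time course (log2 change -2.82), where Saa3 and Cfb had changes of -0.58 and -0.55 and Saa1 stayed at or under 1.85 TPM in the basal and 24-hour libraries. Saa1 and Saa2 are near copies, and the 3 Saa genes lie together on chromosome 7 between 46711998 and 46754314 (mm10). Interferon-stimulated genes (28 tested), genes of MHC class II (9 tested), cell cycle and DNA replication genes (38 tested) and genes of cholesterol synthesis (22 tested) had no gene called in either direction, where 2.32% of all genes were induced and 1.62% repressed, so that lists of these sizes would hold few calls at that rate. Of the cell cycle genes, 19 of 38 were higher and 4 lower at an adjusted p under 0.05 without reaching 2-fold, with a median of 0.28, where 31.4% of all genes were higher and 12.9% lower. The median of that list at 24 hours of the time course was -0.06, near the -0.05 of all genes. The mini-chromosome maintenance gene Mcm2, of the replication helicase, had the largest change of that list, at means of 6.43 and 13.1 TPM (log2 change 0.93).

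Of 22 C-type lectins and scavenger receptors, 3 were induced (Clec7a, Mrc1 and the fatty acid receptor gene Cd36) and 6 were repressed, among them Clec4n (the dectin-2 gene, 114 to 24.3 TPM on average, log2 change -2.18), Clec12a (-2.01) and Clec4d (-1.75). Clec7a and Clec4n, which both bind fungal sugars, thus moved in opposite directions. Of 30 genes of fusion, adhesion and integrins, 5 were induced, led by Mmp12, the vacuolar proton pump subunit gene Atp6v0d2 (5.13 to 75.1 TPM, log2 change 3.64), the CD11c gene Itgax (2.74 to 29.2 TPM, 3.01) and the E-cadherin gene Cdh1 (5.57 to 25.9 TPM, 2.03). The CD11b gene Itgam fell from 71.1-72.9 TPM to 28.4-30.6 TPM (log2 change -1.25), the LFA-1 chain gene Itgal by 1.64 and Mmp9 by 1.17 on the log2 scale. Under median-ratio scaling 4 genes of this list were induced and 4 repressed.

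Of 16 growth factor genes, 4 were induced and 1 was repressed. Csf1, the gene for M-CSF, rose from a mean of 1.59 ± 0.214 to 21.7 ± 0.442 TPM (SD, n = 3, log2 change 3.13), Igf1 from 4.27 ± 0.328 to 29.7 ± 1.23 TPM (2.54), the osteopontin gene Spp1 from 246 ± 2.80 to 1202 ± 32.4 TPM (2.28) and Hbegf from 0.0757 ± 0.0435 to 3.57 ± 0.580 TPM (2.08), while Pdgfb fell by 1.38 on the log2 scale. Of 24 genes of fatty acid uptake and oxidation, 4 were induced (3 under median-ratio scaling) and none was repressed. Cd36 rose from 90.0, 89.5 and 89.4 TPM to 366, 385 and 391 TPM (log2 change 2.07), the fatty acid binding protein gene Fabp4 by 2.02, Mgll by 1.45 and Lpl by 1.04. The retinol binding protein gene Rbp4 rose by 3.75 from a mean of 0.148 TPM. In the arginine list (18 tested), the transporter gene Slc7a2 was induced with Arg1 (log2 change 2.40) and Nos2 was repressed, with 2 genes repressed under median-ratio scaling. Of the glycolysis genes, 1 was induced and 2 were repressed, with Pfkfb3 at -1.98, the glucose transporter gene Slc2a3 at -1.23 and Pfkfb4 at 1.87, and 15 of 24 lower at an adjusted p under 0.05 (12.9% of all genes). The median of the list was -0.32, and at 24 hours of the time course it was 0.26, above the -0.05 of all genes. Of 24 antioxidant genes, 4 were repressed (3 under median-ratio scaling) and none was induced, namely the heme oxygenase gene Hmox1 (-1.36), Gsta3 (-1.43), Sod2 (-1.28) and the iron exporter gene Slc40a1 (-1.02).

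The time course gave separate SPRET libraries, 5.70 to 23.8 M tags deep, in a table normalized on its own. No more than 6.91% of values were identical between a library of the 5-strain set and 1 of the time course. At 24 hours, 317 genes were induced there (2.62% of 12088 tested) and 362 were repressed (2.99%). Of the 274 genes induced in the 5-strain libraries that could be tested, 263 had a change above 0 in the time course and 185 (67.5%) were called induced again, where 42.2% of all genes tested in both tables lay above 0. Of the 189 repressed genes, 183 lay below 0 and 135 (71.4%) were called repressed again. The 185 genes made up 60.5% of the 306 genes induced in the time course and tested in both tables, and the 135 made up 38.6% of 350.

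Basal levels stood apart between the experiments for some genes. Ccl9 was at 1.99-2.61 TPM in basal libraries of the 5-strain set and at 19.0 and 19.1 TPM in the time course, and Mmp12 at 2.84-4.46 and at 27.4 and 23.2 TPM, yet both were induced in each (log2 changes 3.65 and 5.01 in the time course). Since the tables were normalized separately, these levels stand side by side and were not tested. Nos2 was the named repressed gene that was flat in the time course, at 1.76 and 3.43 TPM before and 3.25 and 2.25 TPM after 24 hours (log2 change 0.09), against 21.7 to 26.3 TPM in the basal libraries of the 5-strain set. Mir762 had a time-course change of -0.32 (adjusted p = 0.878, limma). Among chemokines, Ccl12 and Ccl8 were at or under 0.916 TPM in the basal and 24-hour libraries of the time course, with log2 changes of 0 and -0.11.

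Ms4a7 and Serpinb10 were called in opposite directions in the 5-strain libraries and the time course, and no gene repressed in the 5-strain libraries was called induced in the time course. Ms4a7, a membrane protein related to Ms4a4a, was at 6.16, 8.79 and 7.34 TPM before and at 24.7, 21.5 and 25.9 TPM after 24 hours in the 5-strain set (log2 change 1.58), and at 11.9 and 7.08 TPM before and at 2.47 and 2.06 TPM after 24 hours in the time course (log2 change -1.64). Serpinb10, a protease inhibitor, was at 0.797, 0.948 and 0.954 TPM before and at 6.10, 6.62 and 6.87 TPM after in the 5-strain set (log2 change 1.99). In the time course it was at 8.37 and 7.74 TPM before, at 28.4 and 27.2 TPM after 1 hour, at 27.4 and 25.2 TPM after 6 hours and at 3.56 and 2.78 TPM after 24 hours (log2 change -1.12). Serpinb10 was thus above its start at 1 and 6 hours in that experiment and below its start at 24 hours.

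**Figure D4:**
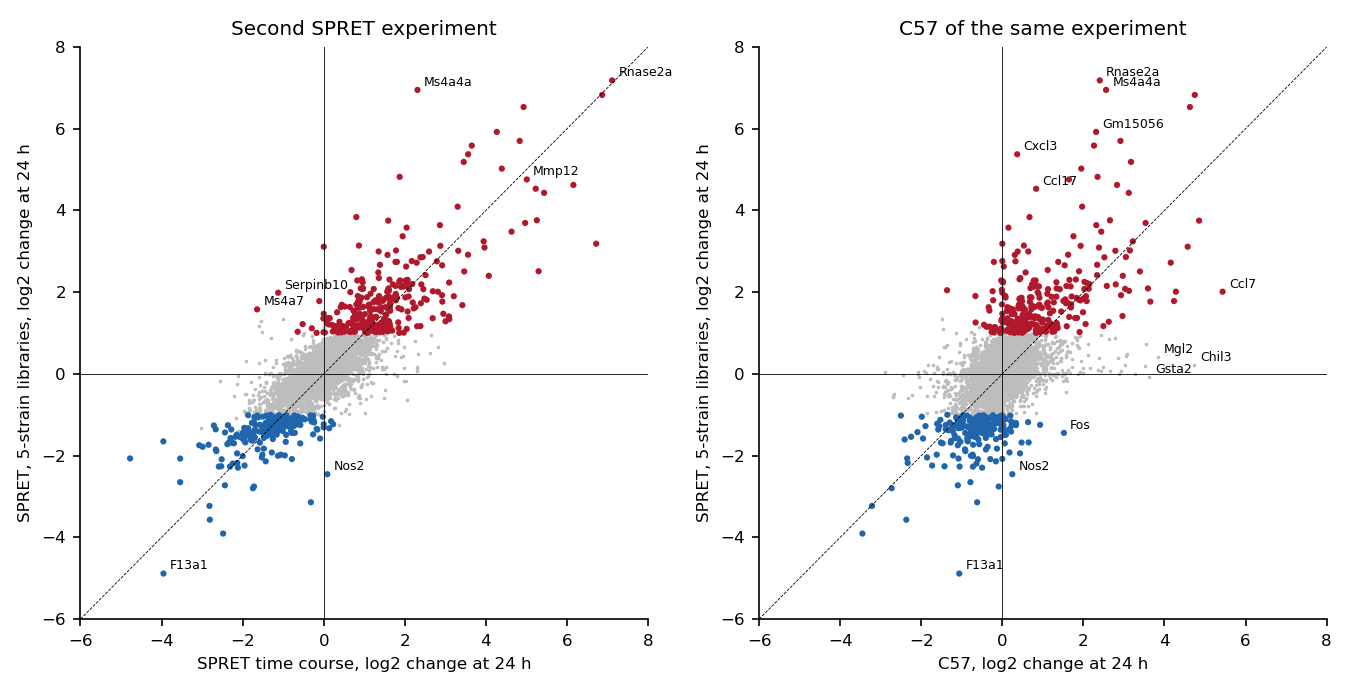
Log2 changes of SPRET at 24 hours in the 5-strain libraries (y axis) against those of SPRET in the time course (left, x axis) and of C57 in the 5-strain libraries (right, x axis), with genes induced in red, genes repressed in blue and equality as a dashed line. On the left Ms4a7 and Serpinb10 lie above 0 on one axis and below 0 on the other, and on the right Chil3, Gsta2 and Mgl2 lie near 0 for SPRET and above 3 for C57.

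More inductions than repressions were called early. After 1 hour of IL-4, 171 genes were induced (1.41%) and 57 repressed (0.472%) in SPRET, and after 6 hours 340 (2.81%) and 212 (1.75%). Of the 274 induced genes that both tables could test, 80 (29.2%) were induced at 1 hour of the time course and 189 (69.0%) at 6 hours. Of the 189 repressed genes, 17 (8.99%) were repressed at 1 hour and 97 (51.3%) at 6 hours. The median log2 change of the induced genes was 0.50, 1.43 and 1.36 at 1, 6 and 24 hours, and that of the repressed genes was -0.14, -1.04 and -1.33. Of the induced genes, 59 were called at all 3 times, 20 at 1 hour but not at 24 hours, and 39 at no time, and of the repressed genes these were 10, 6 and 43.

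Single genes took several courses. Socs1 was highest after 1 hour, at 196 and 214 TPM, from 0.207 and 0.763 TPM, and lay at 39.7 and 41.5 TPM after 24 hours. Cish was at 103 and 98.6 TPM after 1 hour and at 96.7 and 92.9 TPM after 24 hours, and Egr2 at 165 and 171 TPM and at 160 and 149 TPM, so that both reached their level within the first hour. Arg1 was still at 9.29 and 6.74 TPM after 1 hour and reached 178 and 166 TPM after 6 hours and 579 and 472 TPM after 24 hours. Mmp12, Ccl22 and Ccl17 came last, with Ccl22 at 1.23 and 1.20 TPM after 1 hour, 13.6 and 13.8 TPM after 6 hours and 148 and 130 TPM after 24 hours. Ms4a4a rose to 79.6 and 58.7 TPM at 6 hours and lay at 14.1 and 9.63 TPM at 24 hours, where the 5-strain libraries held 223 to 252 TPM. F13a1 was at 110 and 100 TPM after 1 hour, against 77.6 and 87.6 TPM before, and at 4.79 and 4.01 TPM after 24 hours. Fpr1 and Fpr2 lay within 0.31 of their basal value on the log2 scale at 1 hour and had fallen by 2.71 and 2.36 at 6 hours.

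**Figure D5:**
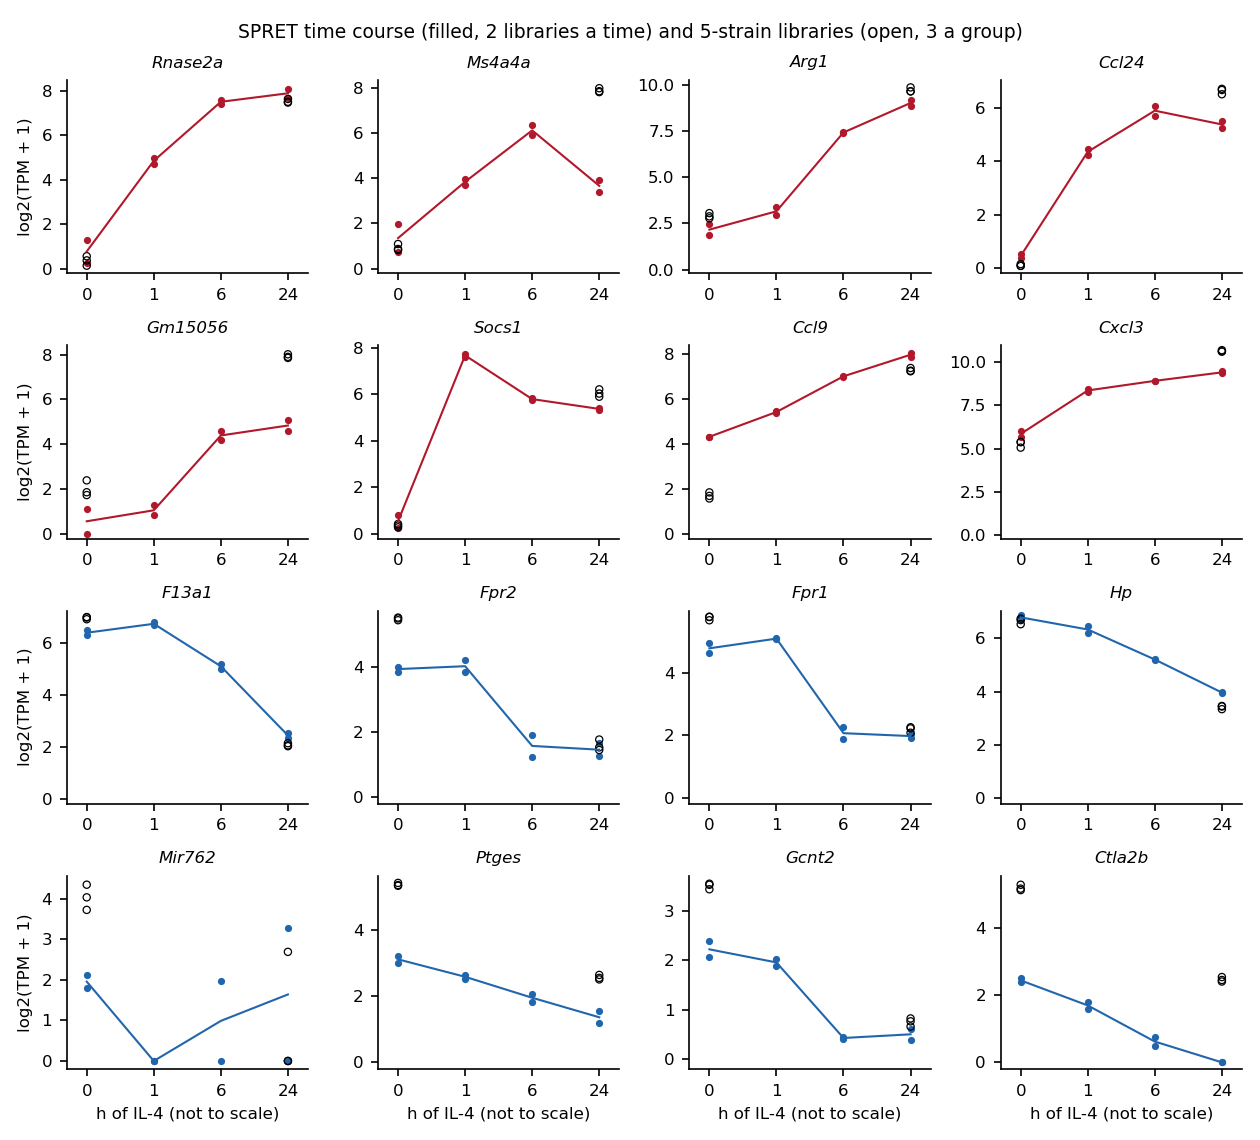
Expression of the 8 most induced (red) and 8 most repressed (blue) named genes in SPRET before and after 1, 6 and 24 hours of IL-4, as log2(TPM + 1), with filled points for the 2 time-course libraries of each time, a line through their mean, and open circles for the 5-strain libraries. Socs1 peaks at 1 hour and Ms4a4a at 6 hours, while F13a1 and Fpr1 fall between 1 and 24 hours.

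SPRET and C57 shared a part of the response. Of the genes called in SPRET, 112 of the 276 induced and 55 of the 193 repressed were called in the same direction in C57, where 2.28% of all genes were induced and 1.53% repressed. In PWK these were 92 and 21, where 1.54% of all genes were induced and 0.546% repressed. Each strain was set against its own basal libraries. The difference of the log2 changes, SPRET minus C57, was tested in the same fit. At more than 2-fold and an adjusted p under 0.05, it was above 0 in 218 genes (1.83% of genes tested) and below 0 in 193 (1.62%). A difference below 0 holds both weaker inductions and stronger repressions in SPRET. Against PWK, the difference at the same limits was above 0 in 168 genes (1.41%) and below 0 in 202 (1.7%). Under median-ratio scaling the counts against C57 were 151 and 266, and under quantile normalization 162 and 258.

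Among the 5 genes in which SPRET exceeded C57 most were Cxcl3, Ccl17 and Rnase2a. Cxcl3 averaged 19.6 TPM before and 25.4 TPM after IL-4 in C57, against 37.9 and 1604 TPM in SPRET (difference of log2 changes 5.01, standard error 0.15, adjusted p = 6.99e-18, limma). Cxcl2 (2.61), Cxcl1 (2.32), Pf4 (2.36) and Ppbp (2.60) also responded more in SPRET, and none of the CXC chemokine genes was induced in C57. Rnase2a averaged 1.99 and 14.7 TPM in C57 (difference 4.78), Ms4a4a 11.4 and 72.1 TPM (4.39) and Gm15056 4.08 and 23.2 TPM (3.61). The log2 change of Ms4a4a was 2.56 in C57 of the 5-strain set. At 24 hours of the SPRET time course, a separate experiment not tested against that set, it was 2.31. C57 of the time course was not set beside it. Cxcl3, Rnase2a, Ccl17 and Gm15056 changed there by 3.56, 7.11, 5.23 and 4.27. Ccl17 was listed at 0 in basal C57 and averaged 0.791 TPM after IL-4 (difference 3.70). In C57, Pf4 was already at a mean of 289 TPM before IL-4, and its level after IL-4 was lower in SPRET, at 77.3 TPM against 452 TPM. Mmp12 and Ccl9 had the same pattern, with differences of 3.11 and 3.33 and lower levels in SPRET at both conditions. Against PWK, the difference was 3.25 for Cxcl3 and 4.69 for Rnase2a, and it was 0.14 for Arg1 (adjusted p = 0.743, limma).

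The genes with a difference below 0 included markers of alternative activation with a weaker or no induction in SPRET. Chil3 rose from 65.4 to 1749 TPM on average in C57, where SPRET averaged 0.355 and 0.570 TPM (difference -4.51, adjusted p = 3.08e-11, limma). Mgl2, a lectin that binds galactose, rose from 2.40 to 47.4 TPM in C57 against 0 and 0.332 TPM in these SPRET libraries (difference -3.42), although it was induced in the SPRET time course, and its neighbour Clec10a from 4.39 to 38.9 TPM against 16.8 and 16.8 TPM (difference -2.88). Gsta2, a glutathione transferase, was at or near 0 in SPRET, at 0.161 TPM in 1 basal library and listed at 0 in the others, while it rose from 1.56 to 30.3 TPM in C57 (difference -3.68). The reads of SPRET were aligned to a SPRET version of the mouse reference, and whether copies that differ from the reference lower such levels was not tested. Ccl7 was induced in both strains, from 0.539 to 5.21 TPM in SPRET and from 6.12 to 307 TPM in C57 (difference -3.42), and Ccl2, Ccl12 and Ccl8 beside it also responded less (-1.88, -1.46 and -2.45). F13a1 was repressed more strongly in SPRET (difference -3.82), with a basal mean of 6.83 TPM in C57 against 123 TPM in SPRET, and 2.74 and 3.19 TPM after IL-4. Against PWK the difference was smaller for Chil3 (-0.95), Gsta2 (-1.49) and Ccl7 (-0.73). Chil3 averaged 1.78 and 4.82 TPM in PWK, and Gsta2 0 and 1.81 TPM. For Mgl2 and F13a1 the difference against PWK was -3.43 and -3.44. Fos was induced in C57 (log2 change 1.52) and repressed in SPRET (difference -2.96). In the SPRET time course the log2 change of Fos was -2.24 and -1.86 at 1 and 6 hours and -0.71 at 24 hours, when it was not called. Nos2 averaged 55.0 and 65.4 TPM in C57 (difference -2.70), but its log2 change in the SPRET time course was 0.09 at 24 hours. For some strong responses the difference was small beside its standard error, as for Pparg (difference 0.08, standard error 0.11), Hp (-0.02, standard error 0.14) and Ptges (-0.07, standard error 0.09).

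Genes chosen in the time course could be followed in the 5-strain libraries, which took no part in the choice. The 306 of them induced after 24 hours had a median log2 change of 1.17 in SPRET, 0.72 in C57 and 0.41 in PWK, where the medians of all genes were 0.11, -0.04 and 0.08. The list favours SPRET, since it was chosen in that strain. A difference of the log2 changes of more than 2-fold, at an adjusted p under 0.05, was called for some of these genes. Against C57 it was above 0 in 79 and below 0 in 21, where 1.83% and 1.62% of all genes were so called. Against PWK it was above 0 in 104 and below 0 in 6, where 1.41% and 1.7% of all genes were so called. The 350 genes repressed in the time course had medians of -0.82, -0.52 and -0.17 in the 3 strains. Of these, 135 were repressed in the SPRET libraries of the 5-strain set, 74 in those of C57 and 18 in those of PWK. Of all genes tested, 1.62% were repressed in SPRET, 1.53% in C57 and 0.546% in PWK.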

How the data were processed

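RNA sequencing of polyadenylated RNA from the 6 SPRET libraries, the 8 libraries of the SPRET time course, and the C57 and PWK libraries was used. The BALB/cJ and NOD/ShiLtJ libraries and the C57 time course also entered the fits. The authors aligned reads with STAR 2.5.3 to strain genomes made from mm10 and strain variants with MMARGE 1.0, shifted positions back to mm10, counted reads over exons with HOMER 4.11.1 and deposited TPM values, 1 row per gene. The libraries mark the strand of the RNA, and whether counting used it is not given in the sources used here. The deposited tables also hold the authors' fold changes and p-values, which were not used.

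Because the deposited values were TPM and not counts, limma 3.58.1 (R 4.3.3) was run on log2(TPM + 1), with a mean for each group and an empirical Bayes trend, over 29 libraries of the 5-strain table and, separately, 16 of the time course. The test covered genes that reached 1 TPM in 2 or more libraries, with the Benjamini-Hochberg adjustment applied over the whole set. The members and the 26 gene lists and 10 marker lists were chosen with earlier results of these data known. Named genes were the 15 induced and 12 repressed genes with the largest change among those whose groups did not overlap and whose higher mean reached 5 TPM, called members of the lists (or the defining genes of lists with none), the 5 largest differences from C57 in each direction, and genes called in opposite directions in the 2 tables. Other genes were named after their values were seen. The fit was tested on simulated data of 11757 genes with normal noise. In the SPRET comparison, 98% of genes with a log2 change of 1.5 and 100% of those with 2 were called. Among unchanged genes, 2 were called. Changes were planted only in genes with a basal level above 5 TPM, so these rates do not cover genes with lower basal levels. Scaling, pseudocount, filter, a replicate block and leaving out libraries were varied.

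In the 5-strain set, the deviations of SPRET libraries with equal replicate numbers correlated weakly, at 0.033, 0.045 and 0.044. Unequal numbers gave -0.045 to 0.003. These values did not settle whether replicate numbers pair the samples. The fit without a block was kept, and a replicate block was run as an alternative. Promoter letters came from RefSeq (GRCm38.p6). Figures were drawn with matplotlib 3.10.9.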

Additional observations from a re-analysis of the deposited data

Results flagged for a closer look

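The response of 10 genes in SPRET differed from that in C57 by the largest amounts, tested as a difference of log2 changes in the limma fit. It was higher in SPRET for Cxcl3 by 5.01, Rnase2a by 4.78, Ms4a4a by 4.39, Ccl17 by 3.70 and Gm15056 by 3.61, with adjusted p-values from 6.99e-18 to 1.07e-10. The difference was -4.51 for Chil3, -3.82 for F13a1, -3.68 for Gsta2, -3.42 for Mgl2 and -3.42 for Ccl7, with adjusted p-values from 2.89e-16 to 3.08e-11. Reads of these strains were aligned to different genomes, and the part of alignment in these differences was not tested. The log2 change of Ms4a4a was 2.56 in C57 of the 5-strain set. In the SPRET time course at 24 hours, a separate experiment not tested against that set, it was 2.31. The other genes higher in SPRET had changes of 3.56 to 7.11 there, and Mgl2 had one of 1.90.

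A further 2 genes were called in opposite directions in the SPRET libraries of the 5-strain set and of the time course at 24 hours. Ms4a7 had log2 changes of 1.58 and -1.64, and Serpinb10 of 1.99 and -1.12. The difference between the experiments was not tested, since their tables were normalized separately.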

How the results depend on the processing

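With 0.1 or 5 TPM added in place of 1 TPM, 431 or 157 genes were induced and 331 or 93 repressed in SPRET. Differences from C57 (SPRET minus C57 log2 change) are counted here and below only where called, at more than 2-fold and an adjusted p under 0.05. They were above 0 in 425 or 104 genes and below 0 in 296 or 87. In the time course, 264 or 112 induced genes and 214 or 68 repressed genes were called again. The median response of genes induced in the time course, 1.17 as reported, was 1.27 and 1.24 under these settings, 1.26 with a filter of 5 TPM, 1.00 with median-ratio scaling and 1.01 with quantile normalization. Leaving out 1 library at a time gave 267 to 280 induced genes, 194 to 199 repressed genes, 202 to 249 with a difference above 0 and 185 to 206 with one below 0, and a median of 1.15 to 1.20. Of 645 values of 39 results on 33 named genes under the alternatives, 644 kept their direction and call, none was reversed, and Serpinb10 lost its call with 5 TPM added (0.97). With the replicate number as a replicate block, 277 genes were induced and 194 repressed, 224 had a difference above 0 and 196 one below 0, 184 and 135 were called again in the time course, and the median was 1.17. Each 5-strain library correlated best with that of its own number, but weakly, and in the time course libraries of unequal number correlated better (0.033 against -0.033). C57 libraries were left out in turn as an alternative chosen after seeing the data. Without gene counts, the depth behind low values is unknown, and with 3 or 2 libraries per group the spread rests on few samples.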

Other observations

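Called genes that follow each other along the genome, with gaps of at most 100 kb, formed 10 runs of at least 3 induced genes and 4 runs of at least 3 repressed genes in SPRET. The runs of Scd2 and Scd1 and of Ptrf and Atp6v0a1 reached 3 only with a microRNA row (Mir5114 and Mir6928). The rows of Ear2, Ear12 and Ear3 all lay between 44102654 and 44103531 on chromosome 14. That stretch is so short that they share a place and do not follow each other, although they are counted as a run. Reads of these rows could not be assigned with certainty. The run of Atf5, Nup62, Gm21948 and Il4i1 holds the overlapping pair Gm21948 and Il4i1. Whether called genes form more runs than other genes was not tested. The run on chromosome 8 from 12949418 to 13056676 (mm10) held F7 and F10, which encode coagulation factors VII and X. F7 averaged 29.6 ± 0.606 TPM before and 112 ± 5.81 TPM after IL-4 (SD, n = 3, log2 change 1.89), and F10 at 40.5, 42.0 and 39.9 TPM before and 256, 257 and 275 TPM after (log2 change 2.66). Both were induced while F13a1, of the last step of clotting, was repressed. On chromosome 19 from 44293676 to 44407709 lay Scd1 and Scd2, which encode stearoyl-CoA desaturases, with log2 changes of 1.15 and 1.29. These genes were named after their values were seen.

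Serpinb2, Serpinb10 and Serpinb8, protease inhibitors of 1 family, formed a run on chromosome 1 from 107511510 to 107608978. Serpinb2 was at 0.600, 0.763 and 0.536 TPM before and 21.3, 21.5 and 24.2 TPM after IL-4 (log2 change 3.84). In the time course Serpinb2 was at 2.44 and 1.70 TPM before, 55.2 and 47.9 TPM after 1 hour and 4.14 and 4.51 TPM after 24 hours. Repressed runs held Bst1 and Cd38, related enzymes that consume NAD, on chromosome 5 (log2 changes -1.35 and -1.66), and Aif1, Lst1 and Ltb on chromosome 17 (log2 changes -2.20, -1.39 and -1.20).

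In cholesterol synthesis, 15 of 22 genes were higher and 1 was lower at an adjusted p under 0.05 in SPRET (limma) with a median log2 change of 0.25, where 31.4% of all genes were higher and 12.9% lower, and none reached 2-fold. The synthase gene Hmgcs1 was at 32.5, 33.0 and 32.6 TPM before and 54.3, 53.8 and 54.8 TPM after IL-4 (log2 change 0.71), where in C57 it averaged 14.5 and 9.62 TPM. In the SPRET time course its log2 change at 24 hours was 0.08 (adjusted p = 0.322, limma).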
